A study of Homo sapiens with 2 samples.

Results

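The genes described here are 10 genes of iron handling and ferroptosis defence, out of 33538 genes in the count tables of a single-cell RNA sequencing study of A375, an established human melanoma cell line. They were chosen by symbol for their roles, with no measured value in the rule but with earlier results of these data known. All 10 were found. FTH1 and FTL store iron, TFRC imports it and HMOX1 releases it from haem. ACSL4 supplies the lipids that peroxidise, GPX4 and GCLM belong to the glutathione arm of the defence, and AIFM2, NQO1 and DHODH belong to arms that regenerate lipid-soluble radical traps. The parental library held A375 cells labelled untreated. The persister library held A375 cells left after 15 days beside cytotoxic T lymphocytes (CTLs) that recognise the tumour antigen NY-ESO-1. Recombinant interleukin 2 was in the medium at 7.5 ng/mL, and new CTLs came every 3 days. All cells were of the same line and grew in RPMI 1640 medium with serum. Whether parental cells received interleukin 2 or were held for the same time is not in the labels, so CTL contact, interleukin 2 and time in culture cannot be told apart. There was 1 library per group, so no test between the groups was possible, and every difference below describes these 2 libraries.

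Ferroptosis is a form of cell death in which iron drives the peroxidation of polyunsaturated phospholipids in membranes. GPX4, a selenium-containing enzyme, uses glutathione to reduce those peroxides, and reduced coenzyme Q and related molecules stop the chain reaction separately. Free iron is kept low by ferritin, a shell built of heavy (FTH1) and light (FTL) chains, and cells tune ferritin against the transferrin receptor through iron regulatory proteins, which bind hairpins called iron-responsive elements in the untranslated ends of the mRNAs. Binding near the start of a message blocks its translation, and binding near its end protects it from decay.

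Those hairpins are shown here because they set ferritin and TFRC apart within the same control. A search of the GENCODE 29 transcripts on GRCh38 for a bulged C, 5 paired bases, the loop CAGTGN (N other than G) and 5 paired bases, with G-U pairs allowed, found 1 such element in the 5′ untranslated region of FTH1, 1 in that of FTL and 4 in the 3′ untranslated region of TFRC. Anywhere in a transcript, the same pattern was found in 214 of 19669 protein-coding genes (1.09%) and in 5 of 55 genes searched of the iron and haem lists described below and the 10 genes. A match describes the sequence and does not show binding. The loop is in capitals, and each sequence reads 5′ to 3′ along the message, with T for U. The FTH1 element lies at chr11:61967574-61967602 on the minus strand, the FTL element at chr19:48965335-48965363 on the plus strand, and the TFRC elements at chr3:196050979-196051007, chr3:196050575-196050603, chr3:196050510-196050538 and chr3:196050463-196050491 on the minus strand, in the order of the message.
FTH1: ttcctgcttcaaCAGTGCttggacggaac
FTL: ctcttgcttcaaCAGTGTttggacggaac
TFRC element 1: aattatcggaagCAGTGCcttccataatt
TFRC element 2: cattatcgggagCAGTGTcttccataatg
TFRC element 3: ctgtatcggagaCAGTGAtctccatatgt
TFRC element 4: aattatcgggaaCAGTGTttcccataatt
The ferritin elements share the bases just before and after the loop, and the TFRC elements carry different stems around loops of the same pattern.

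The cell filter required 500 or more genes, 1000 or more UMIs and no more than 20% of UMIs from mitochondrially encoded genes. It was passed by 10630 of 10751 parental and by 6767 of 7144 persister barcodes. A UMI marks 1 captured mRNA molecule. Barcodes with at least 3 of the T cell genes CD2, CD3D, CD3E, CD52, PTPRC and TRAC were set aside, which were 0 parental and 162 persister barcodes. The kept cells held 88110998 parental and 79546026 persister UMIs, with a median of 7590 and 11284 UMIs per cell and of 5.92% and 7.53% mitochondrially encoded UMIs. The libraries shared 38 barcode strings, and possible doublets were left in. Of the 17 melanoma markers, 2 were at 0 UMIs in the parental and 1 in the persister library. The line has little of the pigment programme, with TYR at 0 UMIs in both libraries and MLANA at 0 and 1 UMI. PMEL (9 and 11 UMIs), TYRP1 (2 and 4) and DCT (1 and 2) were also nearly absent. SOX10 (99.6 and 179.1 counts per 1000000 UMIs, CPM) and MIA (168.2 and 1064 CPM) were well detected and higher in persister cells. S100B, S100A1, CSPG4, ERBB3 and PAX3 were also higher there, and TFAP2A was near equal. MITF (13.8 and 6.99 CPM), MCAM (41.2 and 28.9), PRAME (42.7 and 22.7) and GPNMB (32.3 and 10.9) were lower.

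FTH1 was the higher and FTL the lower ferritin chain in persister cells, and the transferrin receptor was near 2-fold lower. FTH1, the ferritin heavy chain, which oxidises iron as it enters the shell (chromosome 11, 61959718 to 61967660, minus strand), was at 4572 CPM in the parental library (95% exact Poisson interval 4558 to 4586) and at 6374 CPM in the persister library (6356 to 6391). The persister level was 1.39 times the parental one. By summed UMIs, which count each molecule at its 3′ end, it stood at rank 23 of all genes in parental and at rank 13 in persister cells. FTL, the light chain, which helps to lay down the iron core (chromosome 19, 48965301 to 48966878, plus strand), was at 3108 CPM in the parental library (3097 to 3120) and at 2368 CPM in the persister library (2358 to 2379), a ratio of 0.762 (0.757 to 0.766). The chains therefore differed in opposite directions, and their sum was close, at 7680 and 8742 CPM, a ratio of 1.14. Intervals throughout cover counting error only. GENCODE 29 names 25 processed copies for FTH1 and 16 for FTL, of which 0 are in the count tables. How the counting treated reads that fit both a gene and a copy was not tested. The values of both chains are uncertain to that degree. FTH1 also overlaps BEST1 on the opposite strand over 5798 bases, and the sources used here do not give the strand setting of the counting.

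TFRC, the transferrin receptor that takes up iron-loaded transferrin (chromosome 3, 196027183 to 196082189, minus strand), was at 132.8 CPM in the parental library (130.4 to 135.3) and at 67.5 CPM in the persister library (65.7 to 69.3). The ratio was 0.508 (0.492 to 0.525), or 1.97-fold lower, just short of the 2-fold difference used here to call a gene higher or lower. HMOX1, haem oxygenase 1, which opens haem and frees its iron (chromosome 22, 35380361 to 35394214, plus strand), was a low gene in both libraries. It had 881 parental and 351 persister UMIs, that is 10.0 CPM (9.35 to 10.7) and 4.41 CPM (3.96 to 4.90). HMOX1 was thus 2.27-fold lower in persister cells, just past the 2-fold threshold, with an interval of the ratio (0.389 to 0.50) that reached it. In cells called G1 by phase scores its ratio was 0.813, from 17 parental UMIs, which ends the call, while it was 0.292 in S and 0.211 in G2M cells.

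The glutathione arm was split. GPX4 (chromosome 19, 1103926 to 1106791, plus strand), which reduces phospholipid peroxides, was at 249.4 CPM in parental (246.1 to 252.7) and 300.6 CPM in persister cells (296.8 to 304.4), 1.21 times the parental level. GCLM, the modifier subunit of the enzyme that makes the glutathione precursor (chromosome 1, 93885205 to 93909456, minus strand), was at 55.6 CPM (54.0 to 57.2) and 40.2 CPM (38.8 to 41.6), a ratio of 0.722. ACSL4, which activates arachidonic and related fatty acids for membrane phospholipids (chromosome X, 109624244 to 109733403, minus strand), was at 27.7 CPM in the parental library (26.6 to 28.8) and at 38.4 CPM in the persister library (37.0 to 39.7). It was higher by the same factor as FTH1, 1.39 (1.31 to 1.46), from far fewer molecules, 2438 and 3051 UMIs. The gene overlaps KCNE5 on the same strand over 929 bases.

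Of the GPX4-independent arm, DHODH was the member with the lowest ratio of all 10. DHODH, the mitochondrial enzyme of pyrimidine synthesis that passes electrons to coenzyme Q (chromosome 16, 72008588 to 72027664, plus strand), had 1632 parental and 555 persister UMIs, which is 18.5 CPM (17.6 to 19.4) and 6.98 CPM (6.41 to 7.58). It was 2.65-fold lower in persister cells, with an interval of the ratio from 0.341 to 0.415. AIFM2, also called FSP1, which reduces coenzyme Q at membranes (chromosome 10, 70098223 to 70132934, minus strand), was at 17.7 CPM (16.8 to 18.6) and 18.5 CPM (17.5 to 19.4). Its ratio of 1.05 had an interval that held 1 (0.972 to 1.12), so no difference was detectable at this depth. NQO1, a quinone reductase and a long-known target of the transcription factor NRF2 (chromosome 16, 69706996 to 69726951, minus strand), was at 588.0 CPM in the parental library (582.9 to 593.1) and at 404.9 CPM in the persister library (400.4 to 409.3), a ratio of 0.689. AIFM2 overlaps H2AFY2 over 14058 bases and NQO1 overlaps AC092115.2 over 710 bases, both on the opposite strand.

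**Figure D1:**
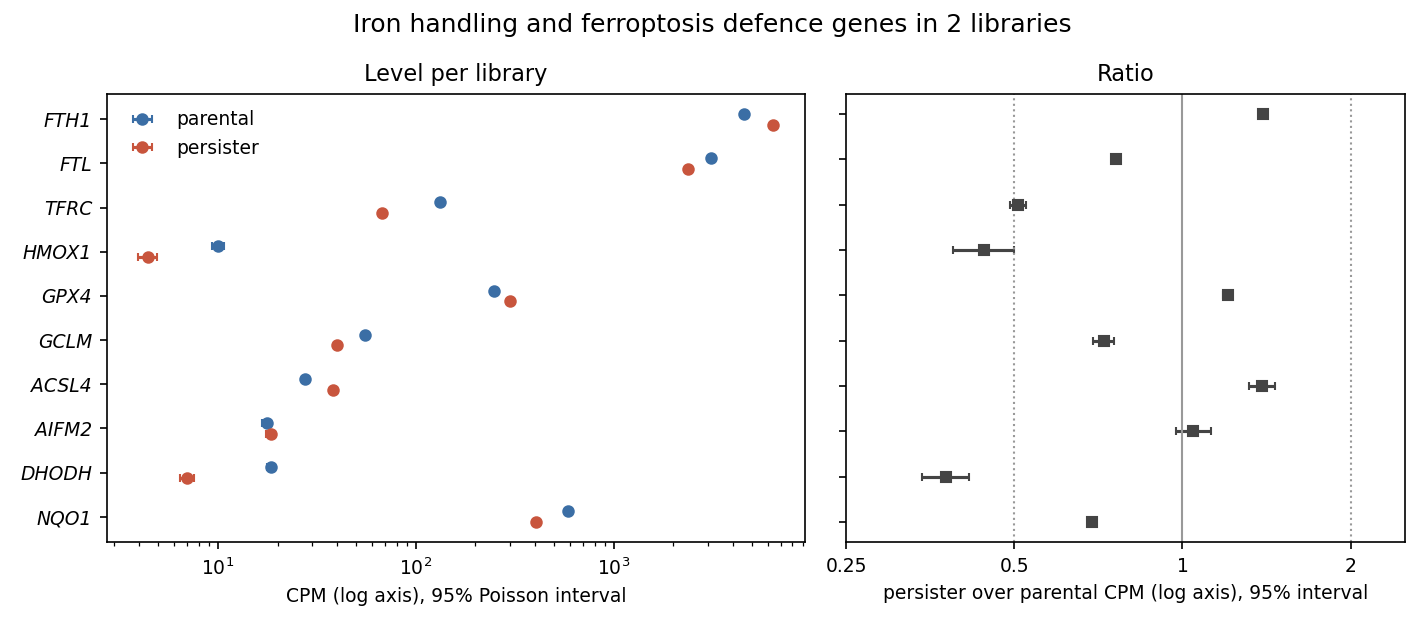
Left, summed level of each gene in CPM on a log axis in the parental (blue) and persister (red) library, with 95% exact Poisson intervals; right, persister over parental ratio on a log axis with 95% counting intervals, the dotted lines marking 2-fold lower and 2-fold higher. DHODH and HMOX1 lie below the lower dotted line, TFRC beside it at 0.508, and FTH1 and ACSL4 lie highest at 1.39.

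Counted by the 2-fold threshold, 0 of the 10 genes were higher and 2 (DHODH and HMOX1) were lower in persister cells. Among the 9938 genes that reached 5 CPM in 1 or both libraries, 10.1% passed the threshold upwards and 10.8% downwards, so 2 of 10 is close to what the measured genes show as a whole. The median log2 ratio of the 10 genes, on the log2(CPM + 1) scale that understates differences of low genes, was −0.43, beside −0.15 for all measured genes. All 10 passed the filter on low values, HMOX1 through its parental level alone.

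The share of cells with at least 1 UMI of a gene was compared at matched depth. A random draw of 5000 UMIs was taken from every cell, which left 9094 parental and 5897 persister cells and dropped 1536 and 708 shallower ones. TFRC was then seen in 47.6% of parental and 26.3% of persister cells, DHODH in 9.24% and 3.24%, and HMOX1 in 4.64% and 2.10%. ACSL4 was seen in more persister cells, 17.1% against 12.9%, as was GPX4, 75.4% against 70.8%. NQO1 was seen in 91.9% of parental and 82.0% of persister cells, GCLM in 24.3% and 17.1%, and AIFM2 in 8.53% and 8.95%. Without thinning, where persister cells were deeper, the shares were 61.5% and 46.2% for TFRC, 14.1% and 7.89% for DHODH, 7.61% and 4.65% for HMOX1, 34.9% and 34.7% for GCLM, 13.4% and 19.2% for AIFM2, 19.8% and 33.5% for ACSL4, 82.1% and 89.4% for GPX4, and 95.5% and 92.1% for NQO1. The order was kept for TFRC, DHODH, HMOX1, NQO1, GPX4, ACSL4 and AIFM2, and the shares were within 1 percentage point for GCLM. No cell type in these libraries is known to lack these genes, so no background share can be given for them.

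Ferritin RNA differed between single cells as well as between the libraries. At 5000 UMIs a parental cell had a median of 20 FTH1 and 15 FTL UMIs, and a persister cell 27 and 10. FTH1 spread more widely among persister cells: the variance over the mean was 11.8, against 5.72 in parental cells. The parental 95th percentile of 43 FTH1 UMIs was exceeded by 19.3% of persister cells (18.3 to 20.3%, exact binomial) and by 4.86% of parental cells. At the other end, 16.9% of persister cells and 2.87% of parental cells had fewer FTL UMIs than the parental 5th percentile of 6, and 13 persister cells had 0. The heavy chain's median share of a cell's ferritin UMIs was 58.6% in the parental and 72.7% in the persister library, and 86.5% of persister cells lay above the parental median. In summed UMIs there were 1.47 FTH1 molecules per FTL molecule in parental and 2.69 in persister cells. Since a 3′ count does not give levels per length and capture can differ between genes, only the change of that ratio is read here, which was 1.83 (1.82 to 1.84). Over cells within a library, FTH1 and FTL were the most alike of all pairs among the 10 genes: Pearson's r of log thinned UMIs was 0.39 over 9094 parental and 0.43 over 5897 persister cells, which share library, depth and a fixed UMI total. Among the 3 genes most like each of the 10 in a library, no other reached an r of 0.2 in both libraries. FTH1 and FTL also have the most UMIs per cell of the 10. TFRC, ACSL4, AIFM2, DHODH, HMOX1 and GCLM averaged at most 0.691 UMIs per cell at this depth. Their low r cannot tell a weak link from sparse counts.

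**Figure D2:**
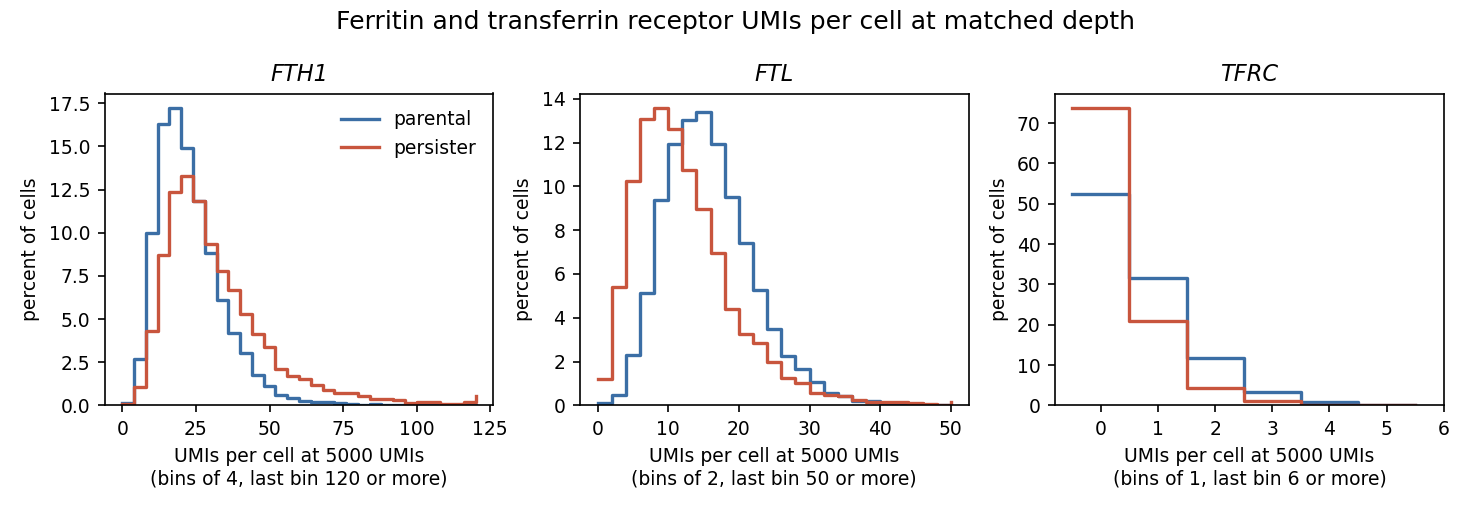
Percent of cells (y axis) by UMIs per cell after thinning to 5000 UMIs (x axis) for FTH1, FTL and TFRC in the 9094 parental (blue) and 5897 persister (red) cells. FTH1 has a longer upper tail in persister cells, FTL is moved to lower values, and 73.7% of persister against 52.4% of parental cells have 0 TFRC UMIs.

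Ferritin RNA was then set against transferrin receptor RNA. Ferritin protein and iron were not measured here, so the quotient does not show iron status. Parental cells had 57.8 ferritin UMIs (FTH1 plus FTL) per TFRC UMI (56.8 to 58.9), and persister cells had 129.5 (126.1 to 133.1). The ratio between the libraries, which depends on no scaling, was 2.24 (2.17 to 2.31). TFRC was lower and the ferritin sum 1.14-fold higher, so both parts of the quotient moved it the same way, although FTL on its own was lower. FTL per TFRC was still higher in persister cells, at 35.1 against 23.4, as was FTH1 per TFRC, at 94.5 against 34.4. The size of the difference moved with cell depth: it was 1.93 in cells with fewer than 5000 UMIs, 2.55 from 5000 to 10000, 1.97 from 10000 to 20000 and 1.28 above 20000 UMIs, where there were 188 parental and 629 persister cells. Parental TFRC was lowest in those deepest cells, at 83.7 CPM. By mitochondrial share the difference was 2.24 at up to 5%, 2.10 from 5 to 10% and 2.48 from 10 to 20%.

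Within each library, the cells with the most ferritin RNA had somewhat less TFRC RNA than those with the least. Cells were ranked by FTH1 plus FTL UMIs at matched depth and divided into 4 groups of near equal size. TFRC was at 149.9, 145.8, 134.8 and 121.9 CPM from the lowest to the highest ferritin group of parental cells, and at 76.0, 66.6, 61.1 and 62.8 CPM in those of persister cells. The CPM intervals of the lowest and highest group did not overlap in either library, while those of neighbouring groups did. By share of cells with a TFRC UMI, the parental groups ran from 50.2% (48.1 to 52.2%) to 44.5% (42.4 to 46.5%). The persister shares were 28.8% (26.5 to 31.2%) in the lowest and 25.6% (23.4 to 27.9%) in the highest group, with intervals that overlapped. Every persister group lay below every parental group, also where ferritin was alike: the lowest groups both had a median of 22 ferritin UMIs. The share of cells with an MKI67 UMI fell along the same order, from 73.6% to 63.6% in parental and from 40.2% to 22.5% in persister cells, and its part in the TFRC gradient was not tested.

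**Figure D3:**
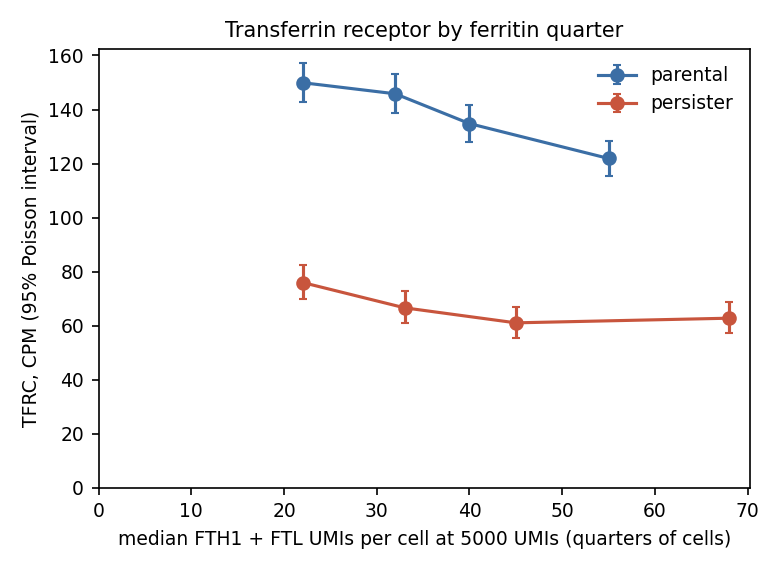
TFRC level in CPM (y axis, 95% exact Poisson intervals) in 4 groups of cells ranked by ferritin UMIs at matched depth, placed at the group's median FTH1 plus FTL UMIs per cell (x axis), for parental (blue) and persister (red) cells. The parental line falls from 149.9 to 121.9 CPM, and the persister line lies between 76.0 and 61.1 CPM.

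The libraries differed in the share of cells with MKI67 RNA, so the genes were followed in cells with and without a UMI of MKI67, a nuclear protein of cycling cells. After thinning, the MKI67-positive cells were 6309 of 9094 in the parental library (69.4%, 68.4 to 70.3%) and 1823 of 5897 in the persister library (30.9%, 29.7 to 32.1%). A missing MKI67 UMI does not make a cell quiescent: by phase scores, 14.5% of MKI67-negative parental but 76.3% of MKI67-negative persister cells were called G1. Median depth before thinning was 8479 and 7425 UMIs in positive and negative parental cells and 14017 and 11134 in persister cells.

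In MKI67-positive cells the threshold was passed upwards by 0 of the 10 genes and downwards by 2 (DHODH and HMOX1), beside 9.9% and 10.5% of all measured genes. In MKI67-negative cells 0 were higher and 2 (TFRC and DHODH) lower, against 10.5% and 13.1% of all measured genes. DHODH was the most even of them, at 19.3 and 19.8 CPM in positive and negative parental cells and 6.58 and 6.48 CPM in persister cells. Its ratio was 0.340 in positive and 0.327 in negative cells. FTH1 was at 4408 and 4794 CPM in positive and negative parental cells and at 5774 and 6624 CPM in persister cells, and FTL was at 2996 and 3235 CPM and at 1995 and 2534 CPM. Both chains were therefore higher in MKI67-negative cells of each library, FTH1 by 1.09 and 1.15 times and FTL by 1.08 and 1.27 times.

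TFRC went the other way, with 140.4 and 133.0 CPM in positive and negative parental cells and 74.7 and 63.0 CPM in persister cells. Its ratio between the libraries was 0.532 (0.490 to 0.577) in positive and 0.474 (0.441 to 0.509) in negative cells, so that it passed the 2-fold threshold in negative cells and not in positive ones, with intervals that overlapped. Ferritin per TFRC was 52.7 in parental and 104.0 in persister MKI67-positive cells, a ratio of 1.97 (1.82 to 2.14). In MKI67-negative cells it was 60.4 and 145.4, a ratio of 2.41 (2.24 to 2.59). The difference between the libraries was thus present in both states and went beyond counting error in each.

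GCLM was lower in MKI67-negative cells of both libraries, at 58.5 and 50.9 CPM in parental and 46.6 and 34.6 CPM in persister cells. GPX4 was at 246.7 and 259.7 CPM in positive and negative parental cells and at 305.8 and 300.4 CPM in persister cells, and ACSL4 at 27.6 and 28.6 CPM and at 39.8 and 38.7 CPM. For GPX4 and ACSL4 the states of a library lay closer together than the libraries did. NQO1 was at 593.0 and 616.0 CPM and at 405.2 and 420.1 CPM, and AIFM2 at 17.4 and 19.2 CPM and at 18.4 and 19.1 CPM. HMOX1 was at 9.67 and 9.41 CPM in positive and negative parental cells but at 2.41 and 5.35 CPM in persister cells. It was the 1 gene of the 10 that differed by 2-fold or more between the states of a library: 2.22-fold higher (1.39 to 3.68) in MKI67-negative persister cells, beside 0.643% of measured genes that were 2-fold or more higher and 2.83% lower in those cells. In this comparison HMOX1 counted as measured through the MKI67-negative cells alone. Its level there had an interval (4.39 to 6.45 CPM) that held the filter value of 5 CPM. In the parental library 0 of the 10 passed that fold in either direction, beside 0.021% and 0.063% of measured genes.

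**Figure D4:**
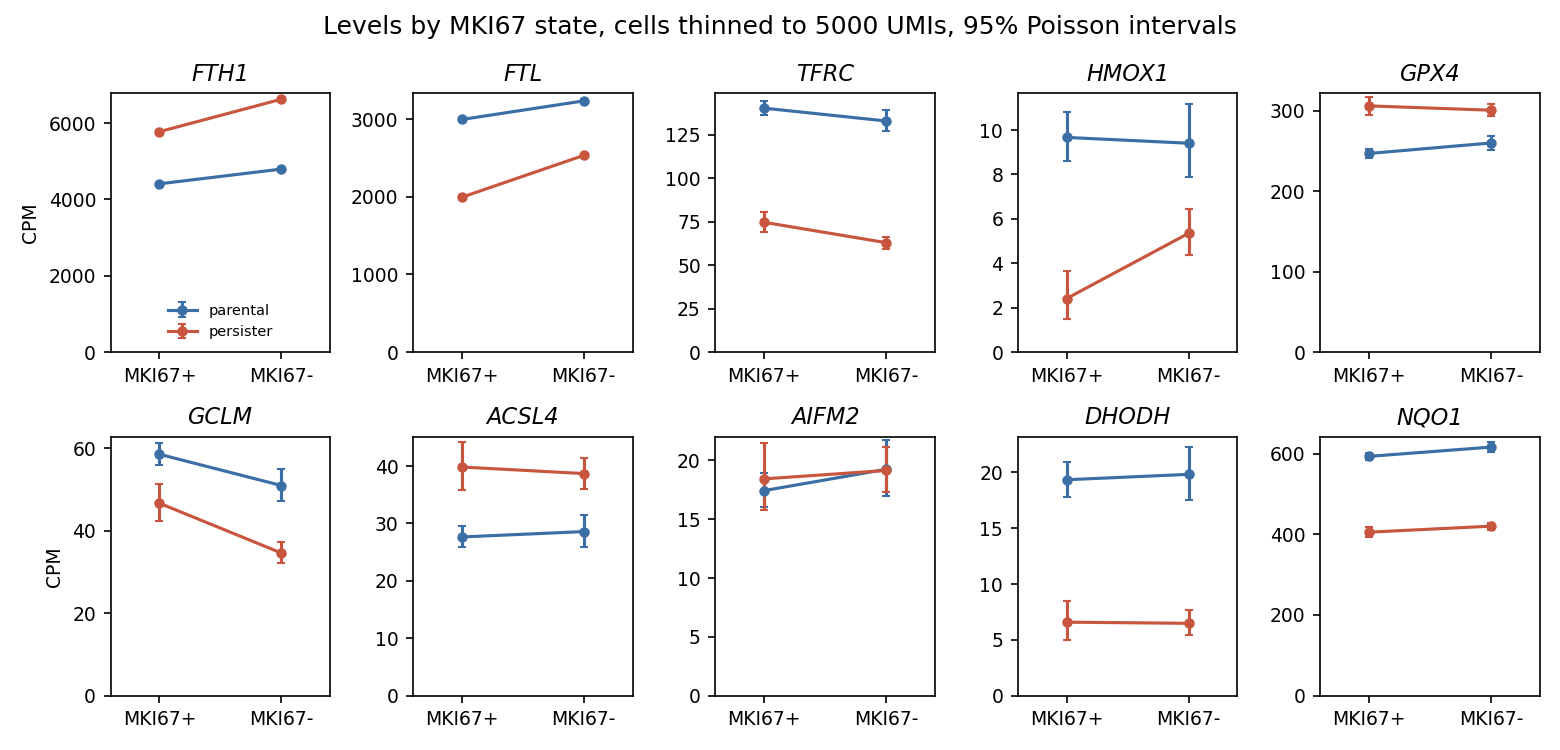
Level of each gene in CPM (y axis, from 0) in MKI67-positive and MKI67-negative cells (x axis) of the parental (blue) and persister (red) library after thinning to 5000 UMIs, with 95% exact Poisson intervals. DHODH lies between 6.48 and 6.58 CPM in persister cells of either state, and HMOX1 is at 2.41 and 5.35 CPM there.

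Genes of other cell types were looked at beside these values. In the 162 barcodes set aside, whose median depth was 3568 UMIs, GPX4 was at 459.6 CPM, FTH1 at 3534, FTL at 1434, TFRC at 156.7, NQO1 at 162.5 and HMOX1 at 22.2 CPM. The 17 melanoma markers summed to 695.8 CPM in these barcodes, against 621.0 CPM in kept parental and 1675 CPM in kept persister cells. The values of the barcodes set aside therefore need not be those of T cells alone. The 6 gate genes summed to 2.87 CPM in kept parental and 6.24 CPM in kept persister cells, against 2953 CPM in those barcodes. As the barcodes were set aside by these genes, what is left of them is held down by the gate. The wider list of 22 T cell and cytotoxic genes summed to 5.35 CPM in kept parental and 152.9 CPM in kept persister cells, or 4.29 and 16.5 CPM without IL32, and to 9692 CPM in the barcodes set aside. Were every gate gene UMI in kept persister cells to come from such cells, they would supply 0.211% of the RNA and between 0.0848% (NQO1) and 1.06% (HMOX1) of the UMIs of the 10 genes. The macrophage markers, of interest because macrophages are rich in ferritin and HMOX1, summed to 13.6 CPM over 14 genes in parental and 30.5 CPM in persister cells, with 8 and 6 of them at 0 UMIs. TYROBP, MARCO, C1QA, C1QB and C1QC were at 0 in both libraries, and FCER1G was at 0.874 and 14.0 CPM. Erythroid markers summed to 1.15 and 0.189 CPM. The part of macrophage RNA, and of T cell RNA beyond the gate genes, in the values of the 10 genes was not tested.

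The wider pathways were described with 6 lists of genes, each set beside the 10.1% of all measured genes that were at least 2-fold higher and the 10.8% that were lower. Cells called G1 made up 5.01% of parental and 57.1% of persister cells at matched depth, so values in G1 cells alone are given for some genes. Phases were scored on the cells of both libraries together, so these shares are relative to that pool. In the parental library 68.4% of cells were called G2M. In the list of iron uptake, storage and export, 1 of 19 measured genes passed the threshold upwards and 1 downwards, and the median log2 ratio was 0.04. The higher one was LCN2, a secreted protein that binds bacterial iron carriers, with 12 parental and 1502 persister UMIs (0.136 and 18.9 CPM, 139-fold, counting interval 79.1 to 269). The fold was 47.4 in cells called G1 and 457.2 with a second random thinning. Only few cells carried it: at matched depth LCN2 was seen in 4.66% of MKI67-positive and 4.88% of MKI67-negative persister cells, against 0.0634% and 0.0359% of parental cells. Before thinning, the top 1% of persister cells held 49.1% of its UMIs. It was seen in 2 of the 162 barcodes set aside by T cell genes, which is 1.23%, at their lower depth. Just short of the threshold lay ACO1, which encodes iron regulatory protein 1, at 17.1 and 32.8 CPM, and the metal importer SLC39A14, at 11.0 and 20.3 CPM. IREB2, which encodes iron regulatory protein 2, was at 39.0 and 27.3 CPM, and NCOA4, which delivers ferritin for breakdown, at 28.7 and 24.0 CPM, and both were named after their values were seen.

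In the haem list 0 of 14 measured genes passed upwards and 3 downwards, beside 10.1% and 10.8% of all measured genes, and the median was −0.28. Beside HMOX1 these were ABCG2, a porphyrin exporter (5.14 and 1.85 CPM), and CPOX, an enzyme of haem synthesis (12.5 and 5.63 CPM). The haem exporter FLVCR1 was at 20.4 and 10.6 CPM and the biliverdin reductase BLVRB at 36.1 and 56.6 CPM. In G1 cells the BLVRB ratio was 1.04 in place of 1.57, and that of FLVCR1 was 0.749 in place of 0.521.

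The glutathione and GPX4 list had 3 of 19 measured genes past the threshold upwards and 1 downwards, and a median of 0.27. Beside 10.1% and 10.8% of all measured genes, counts of this size are near the background. CHAC1, which degrades glutathione, was at 1.03 and 59.8 CPM (57.9-fold). CTH, which makes cysteine from cystathionine, was at 1.11 and 16.8 CPM (15.1-fold), and SLC7A11, the cystine importer, at 14.3 and 54.9 CPM (3.83-fold). In cells called G1 the folds of CHAC1 and CTH were 22.4 and 5.61. These genes feed or drain the cysteine and glutathione pool that GPX4 draws on, and GCLM, at the next step of the same route, had a ratio below 1. The lower gene was SEPHS1, a relative of selenophosphate synthetase, at 33.5 and 11.0 CPM.

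The list of coenzyme Q, tetrahydrobiopterin and vitamin K genes also holds the sterol reductase DHCR7. This list had 0 of 19 measured genes past the threshold upwards and 5 downwards. Of all measured genes 10.1% and 10.8% passed. The median was −0.54, and 2 of the 19 had a ratio above 1, as had 4036 of all 9938. DHODH was 1 of the 5. The others were SPR, of tetrahydrobiopterin synthesis (26.4 and 8.42 CPM), VKORC1L1, a vitamin K reductase (36.2 and 13.6 CPM), and the coenzyme Q synthesis genes PDSS1 (25.1 and 9.45 CPM) and COQ8A (7.13 and 2.67 CPM). In G1 cells the ratio of VKORC1L1 was 0.539, which ends its call, and that of COQ8A 0.232 in place of 0.374. AIFM2 was 1 of the 2 with a ratio above 1, and the other was COQ5 of coenzyme Q synthesis, at 16.3 and 19.1 CPM.

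Of 17 measured genes of polyunsaturated lipid handling, 2 passed the threshold upwards and 2 downwards, beside 10.1% and 10.8% of all measured genes, and the median of −0.15 was that of all measured genes. SAT1, a polyamine acetyltransferase tied to lipoxygenase activity, was at 30.1 and 210.9 CPM (7.0-fold), and ACSL1 at 4.27 and 8.83 CPM (2.07-fold). In G1 cells SAT1 was 3.98-fold higher. ACSL1 lost its call in G1 cells (1.37) and in cells with 10000 to 20000 UMIs (1.87). When cells were thinned it lost the call with the first seed (1.97) and kept it with the second (2.14). PEBP1, a partner of lipoxygenases, was at 289.0 and 123.1 CPM, and LPCAT3, which works after ACSL4 in loading phospholipids, at 12.8 and 5.91 CPM. ACSL4 and LPCAT3, successive steps of the same route, therefore differed in opposite directions. RNA of the lipoxygenases in the list was absent or nearly so. ALOX5, ALOX12 and ALOX15 had 0 UMIs in both libraries. ALOX12B had 5 parental and 13 persister UMIs, ALOX15B 13 and 1, and ALOXE3 5 and 7. The lipoxygenase genes were named after their values were seen.

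The NRF2 list holds the oxidative stress factor NRF2, regulators of its pathway such as KEAP1 and BACH1, and genes it is known to switch on. Of its 27 measured genes, 4 passed the threshold upwards and 5 downwards, beside 10.1% and 10.8% of all measured genes. The median was −0.36. Higher were SLC7A11, the autophagy receptor SQSTM1 (370.0 and 1142 CPM), BACH1, a repressor of HMOX1 (17.3 and 54.5 CPM), and NFE2L2, which encodes NRF2 itself (94.7 and 243.5 CPM). Lower were HMOX1, the carbonyl reductase CBR1 (36.5 CPM in persister cells, 0.365 of the parental level), KEAP1, which marks NRF2 for breakdown (24.6 and 11.4 CPM), the peroxiredoxin PRDX1 (1348 and 572.6 CPM) and AKR1C3, an aldo-keto reductase (6.23 and 2.65 CPM). NFE2L2, KEAP1, PRDX1 and AKR1C3 were named after their values were seen. Of the 10 genes described here, the list holds 5, of which FTH1 had a ratio above 1 and FTL, NQO1, GCLM and HMOX1 had ratios below 1.

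**Figure D5:**
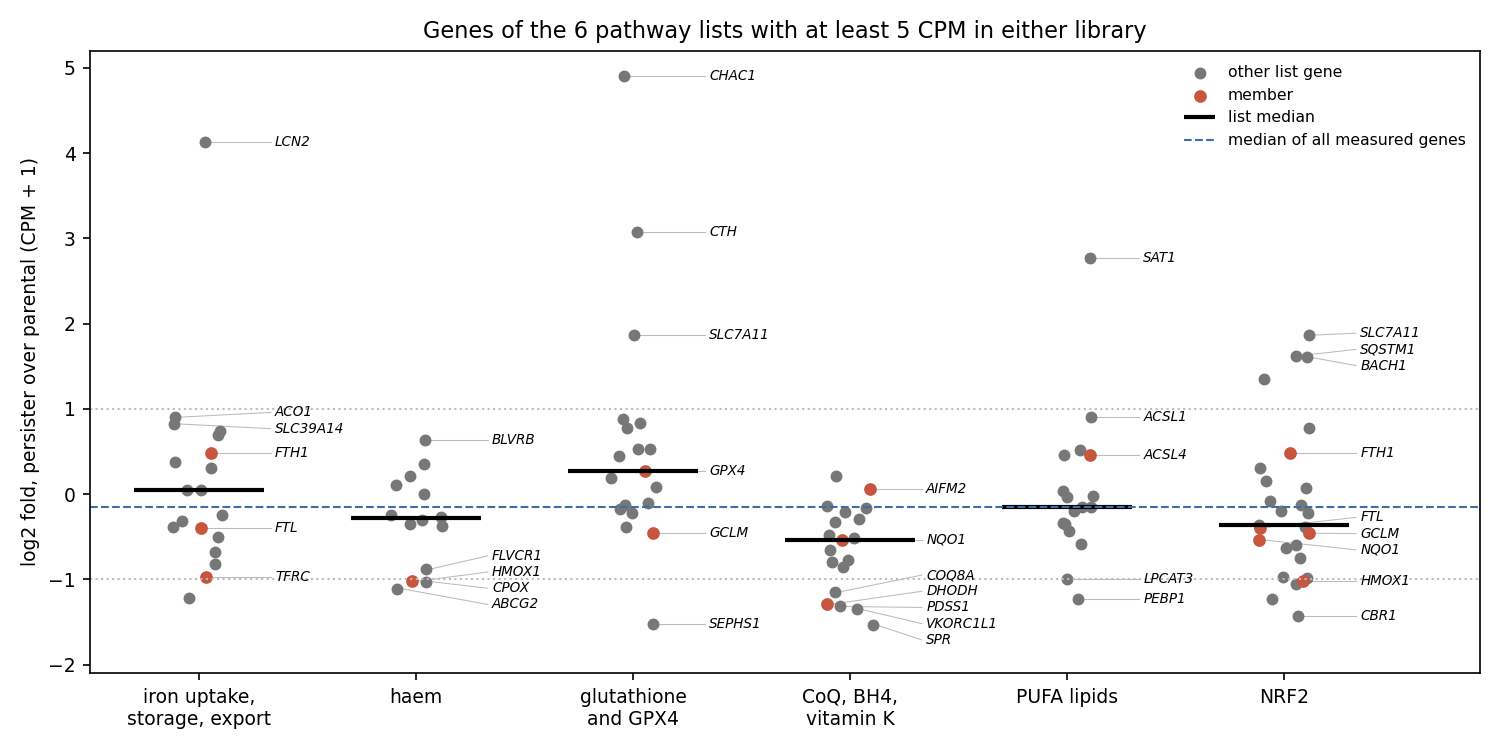
Log2 ratio of persister over parental CPM + 1 (y axis) for every gene with at least 5 CPM in either library in each of 6 pathway lists (x axis); red points are the 10 genes described here, black bars list medians, the dashed line the median of all measured genes (−0.15) and dotted lines 2-fold differences. The coenzyme Q, tetrahydrobiopterin and vitamin K list has its median at −0.54 and 2 genes above 0.

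The antioxidant response element, to which NRF2 binds, was looked for as TGACNNNGC on both strands from 250 bases before to 50 after each gene's RefSeq start on GRCh38.p14. It was found in 2 of the 10 genes and in 4687 of 35116 promoters (13.3%). The matches are shown so that both genes can be compared. Capitals mark the 9 matching bases, which read as the pattern on the opposite strand. That of GCLM begins at position −34 from the start, at chr1:93909447-93909473 with its flanks, and that of AIFM2 at position −22, at chr10:70132830-70132856, each printed along the gene's own minus strand.
GCLM: acgatttctGCTTAGTCAttgtcttcc
AIFM2: agcacgagtGCTGAGTCAcgccccgcc
A match is a description of the sequence only, and a gene without these letters in this window may hold them elsewhere. Of these genes, GCLM was at 0.722 of its parental level in persister cells and AIFM2 at 1.05.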

How the data were processed

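The authors deposited filtered matrices of raw UMI counts per gene and barcode, 1 per library, per the file headers. Per the labels' protocols, library construction used a 10x Chromium 3′ v3 kit. The submitters' processing notes name Cell Ranger 3.1.0 and GRCh38, and no annotation release is named in the sources used here. The 10 genes and all lists were chosen with earlier results of these data known. From the deposited counts, kept cells were summed per library and scaled to CPM with Python 3.11.15, numpy 2.4.6, pandas 2.3.3 and scipy 1.17.1. With 1 library per group no test was run: a gene was measured if it reached 5 CPM in 1 library or both, and a 2-fold ratio of CPM was called higher or lower. Intervals are 95% exact Poisson for levels, the matching conditional interval for ratios, a log-scale interval for ferritin per TFRC, and Clopper-Pearson for shares of cells. Shares, values per cell and MKI67 states used cells thinned to 5000 UMIs. Phases came from scanpy 1.11.5, scored once on the thinned cells of both libraries together. Beside the 10 genes, up to 4 further genes per list were named by the size of their log2 ratio, and those named after their values were seen are marked. A gene that this rule names is not reported here. Alternatives were other cell filters, TMM scaling in edgeR 4.0.16, other totals, filters on low values, pseudocounts, thinning and phases. The summing and calling steps were tested on simulated counts. No doublet caller was run.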

Additional observations from a re-analysis of the deposited data

Results flagged for a closer look

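HMOX1 passed a 2-fold difference between MKI67 states in the persister library and lay near equality in the parental one. In persister cells it was 2.22 times as high in MKI67-negative as in MKI67-positive cells (1.39 to 3.68), and in parental cells 0.973 times (0.787 to 1.20). The difference between these ratios was not tested, since each group has 1 library, and the persister MKI67-positive value rests on 22 UMIs at matched depth. Within the persister library HMOX1 reached 5 CPM in MKI67-negative cells alone, at 5.35 CPM (4.39 to 6.45).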

How the results depend on the processing

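Ferritin per TFRC stayed higher in persister cells under every alternative tried. The ratio of 2.24 became 2.38 with cells thinned to 5000 UMIs, 2.32 with a second random seed and 2.12 in cells called G1. It was 2.34 without the 5% deepest cells and 1.97 in cells with 10000 to 20000 UMIs, the latter settings having been added after seeing the data. The count of 2 genes at least 2-fold lower became 1 (DHODH) in G1 cells (456 parental cells) and 0 with a filter at 20 CPM, which neither gene passes, or with a pseudocount of 5. TFRC joined as the third when cells were thinned, with either seed, or when the deepest cells were left out, as its ratio of 0.508 lies beside the threshold. In MKI67-negative cells HMOX1 joined as the third with thinning to 3000 UMIs or a second seed. The count of 0 higher genes held under all of them. Of 90 alternative ratios of the 10 genes, 1 changed sign, AIFM2 at 0.992 in G1 cells, and of 216 for the other named genes 0 did. Sizes moved more: in G1 cells CHAC1 went from 57.9 to 22.4, CTH from 15.1 to 5.61, LCN2 from 139 to 47.4 (457.2 with the second seed), SAT1 from 7.0 to 3.98, and ACSL1 (1.37) and VKORC1L1 (0.539) lost their calls. FLVCR1 passed 2-fold lower when thinned (0.498, second seed 0.482), ACO1 passed 2-fold higher with TMM (2.08) and SLC39A14 in cells with 10000 to 20000 UMIs (2.13), where LPCAT3 (0.501) and ACSL1 (1.87) lost their calls. In G1 cells the ratios of FLVCR1 (0.749), ACO1 (1.64), SLC39A14 (1.53), SEPHS1 (0.434) and SQSTM1 (2.55) lay nearer 1 than over all cells. That of PEBP1 (0.376) lay further from 1. The ratio of HMOX1 was 0.813 in G1 cells, from 17 parental UMIs, and that of GCLM ran from 0.974 below 5000 UMIs to 0.530 from 5000 to 10000 and 0.979 above 20000. TMM scaling moved the median of all measured genes from −0.15 to −0.03 on the log2 scale and the higher and lower counts from 1001 and 1070 to 1151 and 808. It gave 5 higher and 1 lower genes in the glutathione list, 2 and 1 in the iron list and 0 and 2 in the haem list. In G1 cells the lists gave 4 and 1, 2 and 1, and 0 and 1, and the coenzyme Q list 0 and 6. The cause of these changes was not tested. HMOX1, DHODH and AIFM2 are limited by depth, with at most 1632 UMIs in a library. No paired analysis was possible because each group has 1 library.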
